A study of Mus musculus with 15 samples.

Results

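The Gimap genes (GTPase of immunity-associated proteins) measured here were the 8 members Gimap1, Gimap3, Gimap4, Gimap5, Gimap6, Gimap7, Gimap8 and Gimap9, taken by symbol from 23329 genes counted in every tumor. No other symbol beginning with Gimap was counted. All 8 passed the filter on low counts, which kept 14880 genes with more than 1 CPM (a read count scaled to a common library size) in at least 3 tumors. Gimap1, Gimap4, Gimap6 and Gimap8 would have passed on the neuroblastomas alone, whereas Gimap3, Gimap5, Gimap7 and Gimap9 passed only through the lymphomas.

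RNA was sequenced from 15 mouse tumors, each from 1 mouse. Lymphomas came from cervical lymph nodes of C57BL/6 mice carrying EμMyc, a c-Myc transgene switched on in B cells by an enhancer of the antibody heavy chain locus. There were 4 EμMyc tumors wild type for Casp2 (onset 13 to 19 weeks) and 3 EμMyc/Casp2-/- tumors (onset 8 to 12 weeks), so onset and genotype cannot be told apart. Neuroblastomas were paraspinal thoracic tumors of Sv129/C57BL6 mice carrying Th-MycN, a MYCN transgene under the promoter of tyrosine hydroxylase that is active in developing sympathetic neurons, with 4 Th-MycN tumors wild type for Casp2 (onset 10 to 21 weeks) and 4 Th-MycN/Casp2-/- tumors (onset 15 to 24 weeks). The neuroblastomas had been chosen for little or no visible blood supply, and tumor type, tissue and strain cannot be told apart. In whole tumors, fewer cells of a type and less RNA per cell cannot be told apart either.

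Gimap proteins are GTP-binding proteins of lymphocytes, and their genes lie side by side in one cluster. Gimap5 sits on lysosomes and is needed for the survival and quiescence of T cells. Gimap3 is a close relative of Gimap5 in the endoplasmic reticulum, and Gimap1 is needed for the survival of mature T and B cells. Gimap4 has been linked to the timing of T cell death, Gimap6 to autophagy, and Gimap8 carries several GTPase domains in one protein. Some members are also expressed by endothelial cells. Caspase-2, the product of Casp2, is a protease that limits lymphoma growth in EμMyc mice.

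The cluster spanned 123.6 kb of chromosome 6 (GRCm38, GENCODE M21), from position 48647234 at the start of Gimap8 to 48770851 at the end of Gimap3. Casp2 ended at 42282508 on the same chromosome, 6.36 Mb before it. In the order Gimap8, Gimap9, Gimap4, Gimap6, Gimap7, Gimap1, Gimap5 and Gimap3, the genes were on the plus strand apart from Gimap6 and Gimap3. The counts can mix some transcripts. Of the exon bases of Gimap1, 36.0% lay opposite exons of Gimap1os, and these libraries did not mark strand. Gimap3 and Gimap5 shared 190 stretches of 50 bases, the read length, which made up 7.52% of those of Gimap3 and 4.53% of those of Gimap5; reads from them have no unique place. Gimap4, Gimap7, Gimap8 and Gimap9 shared none with a gene elsewhere. Gm28053, an annotated protein-coding gene on the plus strand that is not among the counted genes, overlapped 3.5% of the exon bases of Gimap7, 6.4% of those of Gimap1 and 3.7% of those of Gimap5.

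The stretches upstream of 4 members are shown because Gimap4, Gimap6 and Gimap8 are among the 6 members with their highest levels in the same 2 lymphomas and lead in the neuroblastomas, while Gimap9 varied least across the lymphomas. Each runs 5′ to 3′ on the gene's strand from 250 to 31 bases before the RefSeq start (GRCm38.p6), and capitals mark a match to CGGAAG (an Ets-type core), TGTGGT (Runx), TGTTTAC (Fox) or CACGTG (the E-box bound by Myc), searched on both strands. Sequences were found for 8 of 8 members, in 9 stretches because Gimap8 has 2 starts, and the first of those is shown.
Gimap4, chr6:48684328-48684547, plus strand: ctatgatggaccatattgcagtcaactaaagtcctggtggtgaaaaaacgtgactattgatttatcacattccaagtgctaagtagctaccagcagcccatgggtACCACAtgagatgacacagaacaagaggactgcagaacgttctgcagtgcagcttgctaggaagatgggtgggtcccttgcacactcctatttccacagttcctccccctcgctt
Gimap6, chr6:48708275-48708494, minus strand: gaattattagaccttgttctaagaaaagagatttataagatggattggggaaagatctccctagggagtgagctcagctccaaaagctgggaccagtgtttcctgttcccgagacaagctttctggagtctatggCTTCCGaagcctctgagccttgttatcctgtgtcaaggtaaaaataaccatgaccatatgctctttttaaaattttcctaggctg
Gimap8, chr6:48646984-48647203, plus strand: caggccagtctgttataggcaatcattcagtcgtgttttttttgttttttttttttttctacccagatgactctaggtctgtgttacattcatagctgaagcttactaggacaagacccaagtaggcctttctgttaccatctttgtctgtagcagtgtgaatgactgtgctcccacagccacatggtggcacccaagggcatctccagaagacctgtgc
Gimap9, chr6:48675885-48676104, plus strand: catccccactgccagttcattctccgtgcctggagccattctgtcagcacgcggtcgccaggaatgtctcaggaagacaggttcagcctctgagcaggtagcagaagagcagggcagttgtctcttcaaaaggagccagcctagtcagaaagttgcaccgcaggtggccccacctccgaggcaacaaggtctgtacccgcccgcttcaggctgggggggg
The letters CACGTG occurred in 0 of the 9 stretches and in 5.01% of 32851 stretches of all genes. An Ets-type match was present upstream of Gimap1, Gimap6 and the second start of Gimap8, against 10.8% of all stretches. A Runx match was present upstream of Gimap1, Gimap4 and Gimap7 (12.7% of all), and a Fox match upstream of Gimap3 alone (2.81% of all). Gimap4 and Gimap6 held different matches, and Gimap9, Gimap5 and the first start of Gimap8 held none.

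Libraries held 4940464 to 17638029 reads counted to genes, and 3 reads were worth 0.173 to 0.586 CPM; the shallowest was EuMycC2ko215, an EμMyc/Casp2-/- tumor. Casp2 read 125 to 203 CPM in EμMyc and 51.9 to 76.1 in EμMyc/Casp2-/- tumors, and 76.0 to 125 CPM in Th-MycN and 39.6 to 80.2 in Th-MycN/Casp2-/- tumors. Casp2 was therefore lower without overlap in the first pair (log2 fold change -1.35, FDR 4e-04 by edgeR's likelihood ratio test and 0.0536 by its quasi-likelihood test), whereas the neuroblastoma groups overlapped (log2 fold change -0.79, FDR 0.101). The counts cover the whole gene, so they check the deletion only in part. B cell markers summed to 2380 to 5720 CPM in the lymphomas and to 13.4 to 34.5 in the neuroblastomas, where neuroblast markers summed to 2900 to 4270 CPM.

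In the EμMyc lymphomas, Gimap RNA was plentiful and led by Gimap9, Gimap1 and Gimap6. Levels of different genes are compared here as CPM per kb of exon. Gimap9 averaged 20.3 ± 5.08 (SD, n = 4), Gimap1 15.6 ± 4.34 and Gimap6 12.3 ± 5.28 CPM per kb, and the ranges of these neighbours in the order overlapped. Gimap4 followed with 6.02 ± 1.95 CPM per kb, then Gimap5 with 3.57 ± 2.25 and Gimap3 with 3.29 ± 2.26. Gimap8 (1.44 ± 0.656 CPM per kb) and Gimap7 (0.779 ± 0.362 CPM per kb) were lowest. The order of the means changed in EμMyc/Casp2-/- tumors, where Gimap1 (35.8 ± 21.4 CPM per kb, n = 3), Gimap6 (32.8 ± 18.3) and Gimap4 (29.3 ± 20.8) stood before Gimap9 (27.9 ± 8.46), but these 4 did not differ beyond their spread.

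Loss of Casp2 in the EμMyc lymphomas was compared first, since Gimap levels were high there. All 8 members had a positive fold change, with a median log2 fold change of 1.56 against -0.03 for all genes tested, and 1 of 8, Gimap4, was called (FDR under 0.05 and a fold over 2, edgeR's likelihood ratio test), where 1.14% of all genes were called higher. With the quasi-likelihood test 0 of 8 were called, with 0.0941% of all genes called higher. At an unadjusted p under 0.05 either test counted 5 of 8 as higher, beside 6.38% (likelihood ratio) and 5.56% (quasi-likelihood) of all genes. DESeq2 called 2 of 8, beside 1.08% of all genes. Groups did not overlap for Gimap3 and Gimap7 alone, with 1.75% of all genes higher without overlap.

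**Figure D1:**
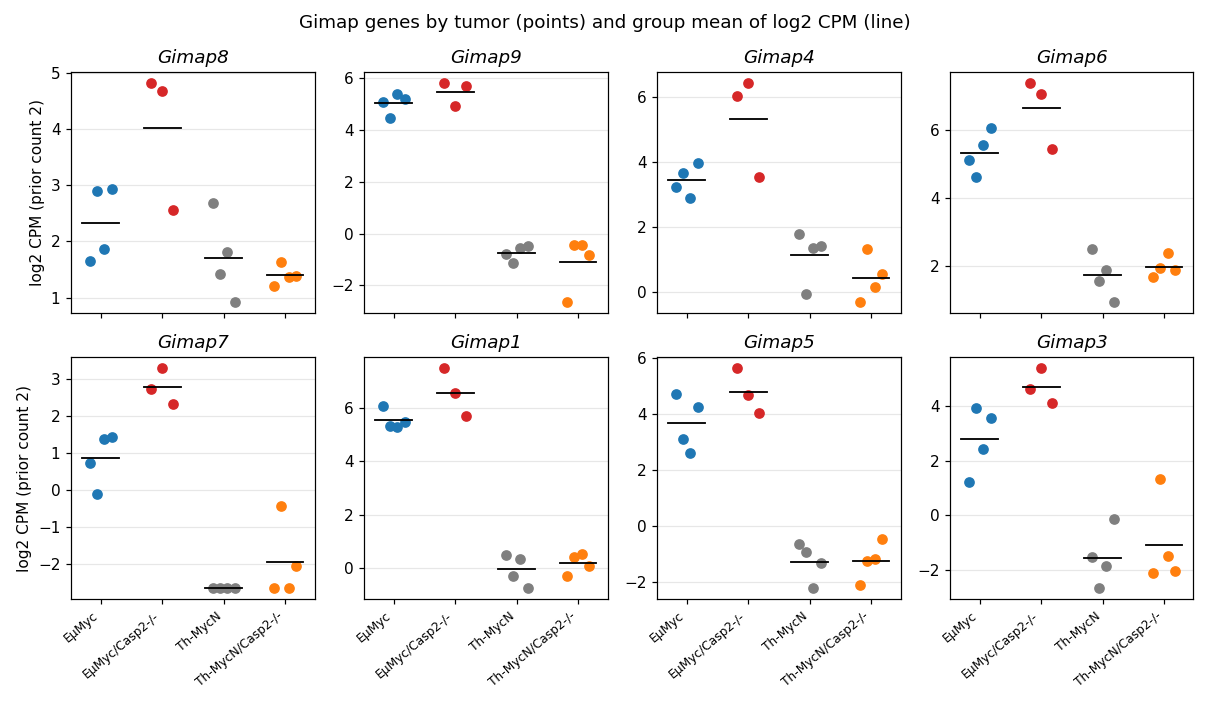
Log2 CPM (prior count 2) of each Gimap gene, in chromosome order, with 1 point per tumor, the 4 groups along the horizontal axis and a line at each group's mean; each panel has its own vertical scale. For Gimap1, Gimap4, Gimap6 and Gimap8, 2 of the 3 EμMyc/Casp2-/- points stand above every other tumor and the third lies among the EμMyc points.

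Gimap4 read 9.19, 12.4, 7.24 and 15.4 CPM in EuMyc614, EuMyc743b, EuMyc829 and EuMyc835. The EμMyc/Casp2-/- tumors EuMycC2ko215, EuMycC2ko239 and EuMycC2ko245 read 64.5, 85.4 and 11.4 CPM. The first 2 of these were above every EμMyc tumor, and the third was inside the EμMyc range. The log2 fold change was 2.28 ± 0.60 (SE), with FDR 0.0179 by the likelihood ratio test, 0.17 by the quasi-likelihood test and 0.0106 by DESeq2. It was 2.14 without EuMycC2ko215 (FDR 0.168, likelihood ratio test) and 1.79 without EuMycC2ko239 (FDR 0.125), and the call was also lost without EuMyc614 (FDR 0.0674) or EuMyc829 (FDR 0.0866).

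Gimap8 followed the same tumors, with 2.97, 7.27, 3.46 and 7.54 CPM in EμMyc and 28.1, 25.3 and 5.75 CPM in EμMyc/Casp2-/-. Its log2 fold change of 1.89 ± 0.57 missed the threshold (FDR 0.0574 by the likelihood ratio test) but passed with DESeq2 (FDR 0.0414). Gimap6 read 34.4, 24.3, 46.7 and 67.2 CPM in EμMyc tumors and 167, 134 and 43.2 CPM in EμMyc/Casp2-/- tumors. As for Gimap4 and Gimap8, EuMycC2ko245 was inside the range of the EμMyc tumors. The log2 fold change of Gimap6 was 1.41 ± 0.46, with FDR 0.0912 by edgeR's likelihood ratio test. Without EuMycC2ko245, 4 members were called: Gimap8, Gimap4, Gimap6 and Gimap1.

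Gimap1, needed by mature lymphocytes, read 67.8, 40.5, 39.4 and 44.4 CPM in EμMyc and 182, 96.5 and 52.0 CPM in EμMyc/Casp2-/- tumors. EuMycC2ko245 was again inside the EμMyc range, and the log2 fold change was 1.19 ± 0.41 (FDR 0.118, likelihood ratio test). Gimap5, the T cell survival factor, read 26.1, 8.55, 5.91 and 18.8 CPM in EμMyc and 49.2, 25.6 and 16.5 CPM in EμMyc/Casp2-/-. Here only EuMycC2ko215 exceeded the highest EμMyc tumor, and the log2 fold change was 1.03 ± 0.62 (FDR 0.626, likelihood ratio test).

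Gimap3, the relative of Gimap5, read 2.19, 15.0, 5.20 and 11.6 CPM in EμMyc and 24.6, 41.1 and 17.3 CPM in EμMyc/Casp2-/- tumors. Gimap7 read 1.49, 0.77, 2.44 and 2.55 CPM in EμMyc and 6.45, 9.60 and 4.85 CPM in EμMyc/Casp2-/-. Both genes were higher in all 3 EμMyc/Casp2-/- tumors than in any EμMyc tumor. The log2 fold changes were 1.70 ± 1.01 for Gimap3 (FDR 0.629, likelihood ratio test) and 1.94 ± 0.75 for Gimap7 (FDR 0.218), so neither was called.

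Gimap9 had the smallest difference: 33.4, 22.1, 42.0 and 36.0 CPM in EμMyc and 56.5, 30.1 and 51.0 CPM in EμMyc/Casp2-/- tumors. The groups overlapped, and the log2 fold change was 0.46 ± 0.39 (FDR 0.798, likelihood ratio test). The tumor with the lowest Gimap9 of the 3, EuMycC2ko239, was the one with the highest Gimap4. Gimap4 had 0.173 to 0.562 reads for each read of Gimap9 in the EμMyc tumors, and 1.14, 2.83 and 0.224 in EuMycC2ko215, EuMycC2ko239 and EuMycC2ko245.

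**Figure D2:**
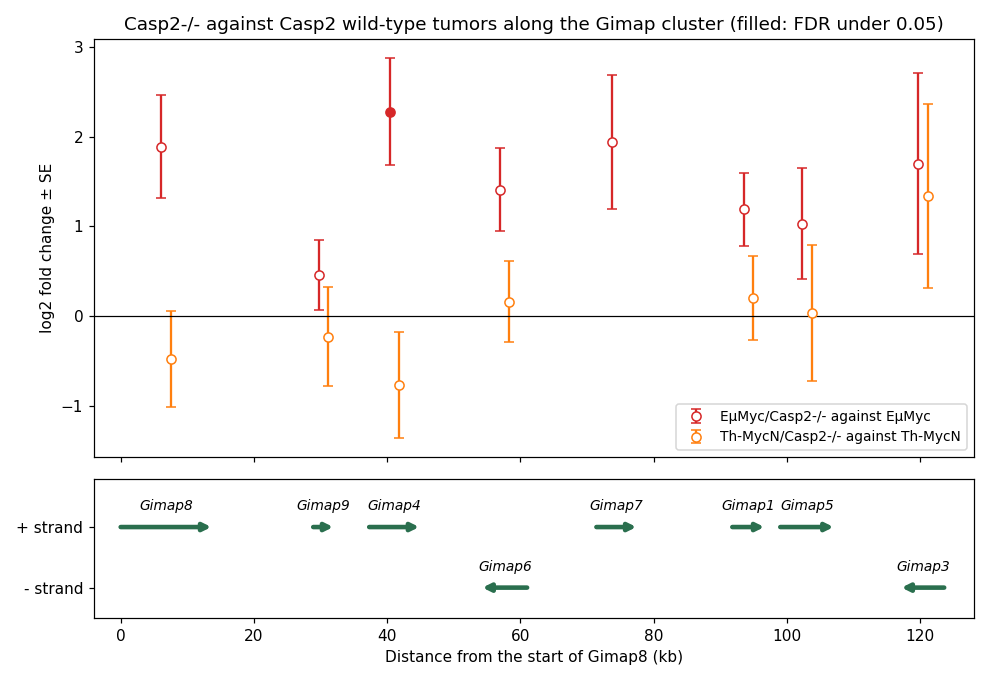
Log2 fold change ± SE of Casp2-/- against Casp2 wild-type tumors (vertical axis) at each gene's place in the cluster, in kb from the start of Gimap8, for lymphomas (red) and neuroblastomas (orange), over arrows for the genes by strand. Gimap4 alone is filled as called, Gimap9 next to it has the smallest lymphoma value (0.46), and Gimap7 has no neuroblastoma point because Th-MycN tumors had 0 reads of it.

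Across the 8 members, EuMycC2ko215 was the highest lymphoma for 5 and EuMycC2ko239 for 3. EuMycC2ko215 was among the 2 highest for all 8, EuMycC2ko239 for 6 and EuMycC2ko245 for 1. EuMycC2ko215 also stood apart as a library, with 11.2% of its reads unmapped against 2.26% to 3.89% in the other tumors, and the part of this in its Gimap levels was not tested. Summed over members, Gimap RNA came to 131 to 203 CPM in EμMyc tumors and to 578, 448 and 202 CPM in these 3 tumors, in that order.

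Markers of other cells were measured in the same libraries. Of 16 T cell markers tested, 7 were called higher in EμMyc/Casp2-/- tumors by the likelihood ratio test, beside 1.14% of all genes. With the quasi-likelihood test 0 were called, beside 0.0941% of all genes called higher. The median log2 fold change was 2.61, from Ubash3a at -0.29 to Cd8b1 at 5.34. The 18 T cell markers counted summed to 132 to 266 CPM in EμMyc tumors and to 2290, 383 and 269 CPM in EuMycC2ko215, EuMycC2ko239 and EuMycC2ko245. Cd3e, a subunit of the T cell receptor complex, was not called (FDR 0.0871, likelihood ratio test). It stood at 52.0, 4.42 and 4.34 CPM in these 3 tumors and at 0 to 2.34 CPM in EμMyc. Cd4, a coreceptor of helper T cells, was called (FDR 0.0482, likelihood ratio test). It stood at 199, 83.0 and 18.2 CPM in the same 3 tumors and at 4.99 to 37.6 CPM in EμMyc. The part of T cells in the Gimap differences was not tested.

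Other lists had smaller medians. Of 5 natural killer cell markers tested, 0 were called (median log2 fold change 1.27), and the 7 counted summed to 2.10 to 8.60 CPM in EμMyc and to 35.7, 16.4 and 8.28 CPM in the EμMyc/Casp2-/- tumors. Of 10 B cell markers, 1 was called higher, Cr2 (log2 fold change 4.84), a receptor for complement that read 56.8 CPM in EuMycC2ko239 and at most 3.52 CPM in the other lymphomas. The B cell median was 0.10. Of 12 endothelial markers 0 were called (median 0.22), and of 9 myeloid markers 0 (median 0.06). The myeloid markers summed to 656, 1140, 714 and 556 CPM in EuMyc614, EuMyc743b, EuMyc829 and EuMyc835. This order was the reverse of that of their Gimap sums (177, 131, 152 and 203 CPM). The myeloid sums were 1680, 994 and 319 CPM in EuMycC2ko215, EuMycC2ko239 and EuMycC2ko245, the same order as their Gimap sums. The T cell, natural killer cell and endothelial sums of the EμMyc/Casp2-/- tumors fell in that order too. Genes of lymphocyte quiescence and survival, such as Klf2 and Il7r, were a list of 17 in which 0 were called (median -0.13), from Bcl2l11 at -0.46 to Slfn2 at 1.59. Among 8 neuroblast genes, 1 was called higher in these lymphomas, Gata3 (log2 fold change 3.78), which T cells also express.

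**Figure D3:**
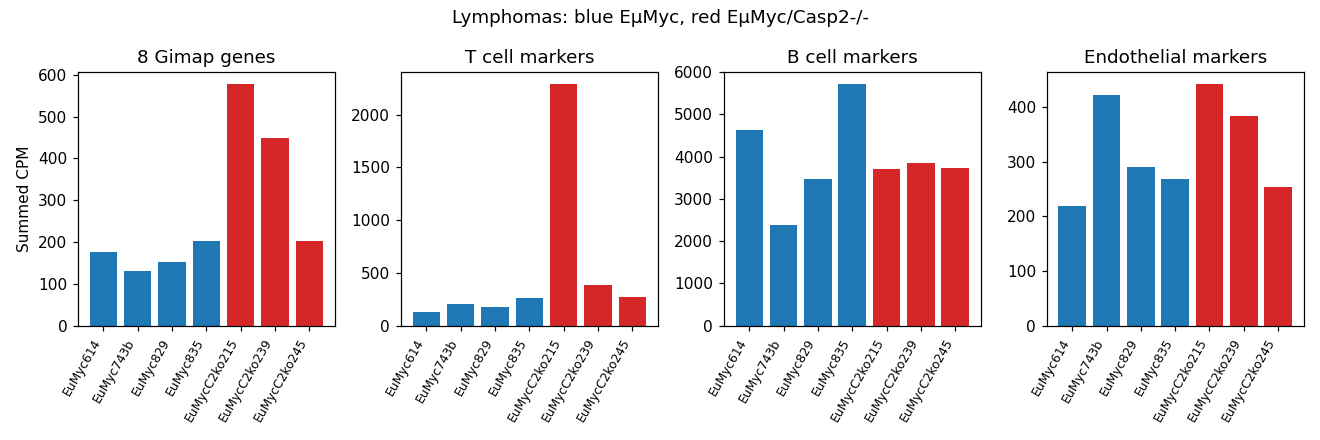
Summed CPM (vertical axis, from 0, a scale per panel) of the 8 Gimap genes and of T cell, B cell and endothelial markers in each lymphoma, EμMyc in blue and EμMyc/Casp2-/- in red. EuMycC2ko215 leads both the Gimap and the T cell sums (578 and 2290 CPM). EuMycC2ko239 has a Gimap sum of 448 CPM and a T cell sum of 383 CPM. EuMyc614 has a T cell sum of 132 CPM with 0 reads of Cd3e, so other listed genes give the sum a base level.

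In the neuroblastomas, Gimap RNA was scarce and loss of Casp2 gave no call. The members summed to 7.41 to 17.4 CPM in Th-MycN and to 6.63 to 13.8 CPM in Th-MycN/Casp2-/- tumors. With the likelihood ratio test 0 of 8 were called (0.188% of all genes were called higher), as with the quasi-likelihood test (0.00672%) and DESeq2 (0.222%). At an unadjusted p under 0.05, 1 of 8, Gimap7, was higher with each test, beside 2.92%, 2.49% and 3.17% of all genes in that order of tests. The groups overlapped for every member, while 2.94% of all genes were higher without overlap. The members' median log2 fold change was 0.10, against 0.00 for all genes.

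Gimap8 read 6.29, 2.54, 3.35 and 1.73 CPM in MYCN175, MYCN235, MYCN332 and MYCN391. It read 2.16, 2.96, 2.41 and 2.44 CPM in MYCNC2ko118, MYCNC2ko144, MYCNC2ko176 and MYCNC2ko180. The Th-MycN/Casp2-/- values all lay inside the Th-MycN range, and the log2 fold change was -0.48 ± 0.54 (FDR 1, likelihood ratio test). Gimap6 read 5.50, 2.76, 3.52 and 1.73 CPM in Th-MycN and 3.02, 3.66, 5.01 and 3.49 CPM in Th-MycN/Casp2-/-, with a log2 fold change of 0.16 ± 0.45. Gimap4 read 3.30, 0.799, 2.37 and 2.53 CPM in Th-MycN and 0.648, 2.31, 0.964 and 1.30 CPM in Th-MycN/Casp2-/-. Its log2 fold change of -0.77 ± 0.59 (FDR 0.94, likelihood ratio test) had the opposite sign to that in the lymphomas, but 3 of the 4 Th-MycN/Casp2-/- values lay inside the Th-MycN range.

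Gimap1 stayed between 0.432 and 1.25 CPM in the 8 neuroblastomas, with a log2 fold change of 0.20 ± 0.47. Gimap9 reached at most 9 reads and 0.579 CPM (log2 fold change -0.23 ± 0.55), and Gimap5 at most 8 reads and 0.569 CPM (0.03 ± 0.76). Both were close to the level of 3 reads, so a modest difference in these 2 could have been missed at this depth. With standard errors of 0.45 to 0.59, a modest difference in Gimap1, Gimap4, Gimap6 or Gimap8 could have been missed too. Gimap7 had 0 reads in all 4 Th-MycN tumors and 0, 9, 0 and 1 reads in the Th-MycN/Casp2-/- tumors. Pooled over the group, the 10 reads were at least 4.07-fold above the level of 3 reads in Th-MycN, and the test did not call it (FDR 0.0798 by the likelihood ratio test and 0.482 by the quasi-likelihood test). The 9 reads came from MYCNC2ko144. That tumor also held 36 reads of Gimap3, against at most 12 in any other neuroblastoma, and the highest B cell marker sum of the neuroblastomas (34.5 CPM). The log2 fold change of Gimap3 was 1.34 ± 1.03 with it and -1.16 without it.

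Endothelial markers were measured here because some Gimap genes are expressed in blood vessels. Of 12 markers, 2 were called lower by the likelihood ratio test, Pecam1 (log2 fold change -1.20) and Kdr (-1.46), beside 0.625% of all genes. With the quasi-likelihood test 0 were called, beside 0.0269% of all genes called lower. The list's median was -0.79. The 12 summed to 94.4 to 157 CPM in Th-MycN and to 57.8 to 88.7 CPM in Th-MycN/Casp2-/- tumors. MYCN175 had the highest endothelial sum (157 CPM) and the highest Gimap8, Gimap6 and Gimap4 of the neuroblastomas. MYCNC2ko144, however, had the lowest endothelial sum (57.8 CPM) and the highest Gimap8 and Gimap4 of the Th-MycN/Casp2-/- tumors (2.96 and 2.31 CPM). T cell markers summed to 43.4 to 52.6 CPM over both groups. Cd3e had at most 7 reads and Cd3d at most 4 in any neuroblastoma, both in MYCNC2ko144, so these genes added little to the sums. The part of endothelial cells in the Gimap levels of the neuroblastomas was not tested.

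Between tumor types the Gimap genes differed widely. In EμMyc against Th-MycN tumors, 7 of 8 members were called higher with either edgeR test, where 18.9% (likelihood ratio) and 18.3% (quasi-likelihood) of all genes were, and the same 7 did not overlap, against 26.4% of all genes. The log2 fold changes were 6.17 ± 0.45 for Gimap9, 5.79 ± 0.42 for Gimap1, 5.64 ± 0.66 for Gimap5, 4.97 ± 1.00 for Gimap3, 3.67 ± 0.43 for Gimap6 and 2.29 ± 0.57 for Gimap4, with FDR from 3.93e-37 to 0.00025 by the likelihood ratio test. Gimap7 was at least 38-fold higher, from 81 reads against 0. The exception was Gimap8, with 2.97 to 7.54 CPM in EμMyc and 1.73 to 6.29 CPM in Th-MycN (log2 fold change 0.61 ± 0.53, FDR 0.325, likelihood ratio test). The members' median was 5.30, or 5.11 with Gimap7 at its bound, against -0.04 for all genes. Gimap3, Gimap5, Gimap7 and Gimap9 passed the filter on low counts only through the lymphomas. Their calls and their part in the median were thus partly set by the filter, unlike those of Gimap1, Gimap4 and Gimap6.

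In EμMyc/Casp2-/- against Th-MycN/Casp2-/- tumors all 8 were called with either test, with 20.5% (likelihood ratio) and 19.7% (quasi-likelihood) of all genes called higher, and none overlapped, against 23.6% of all genes. The log2 fold changes ran from 2.98 ± 0.58 for Gimap8 to 6.86 ± 0.50 for Gimap9, with a median of 5.34 against -0.05 for all genes. The same limit of the filter applied here to Gimap3, Gimap5, Gimap7 and Gimap9. As background to these differences, marker lists were counted by the likelihood ratio test. In EμMyc against Th-MycN tumors 18.9% of all genes were called higher. There 9 of 10 B cell, 12 of 16 T cell and 6 of 12 endothelial markers were called higher. In EμMyc/Casp2-/- against Th-MycN/Casp2-/- tumors 10 of 10, 15 of 16 and 10 of 12 were, in that order, beside 20.5% of all genes.

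The make-up of the Gimap RNA also differed between tumor types. Per kb of exon, Gimap4, Gimap6 and Gimap8 together took 61.6% to 87.6% of the summed level in the 8 neuroblastomas, 23.8% to 38.9% in the EμMyc tumors and 43.5%, 54.7% and 24.9% in EuMycC2ko215, EuMycC2ko239 and EuMycC2ko245. These 3 genes were grouped after their values were seen. In Th-MycN tumors Gimap4 (1.22 ± 0.571 CPM per kb, n = 4), Gimap6 (0.966 ± 0.456) and Gimap8 (0.940 ± 0.538) led and did not differ beyond their spread, before Gimap1 (0.277 ± 0.121) and Gimap9 (0.273 ± 0.0720). Gimap9, the first gene in EμMyc tumors, took 26.6% to 41.8% of the sum there and 4.40% to 10.7% in Th-MycN.

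**Figure D4:**
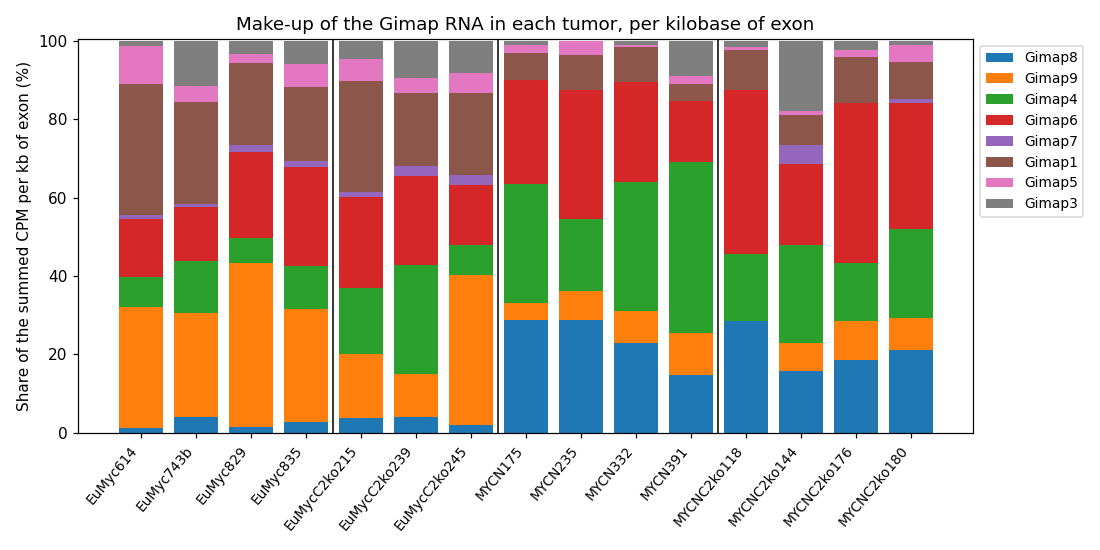
Share of each Gimap gene in the summed CPM per kb of exon (vertical axis, %), 1 bar per tumor, with lines between the groups, lymphomas first and Casp2 wild type before Casp2-/- in each tumor type. Gimap9 and Gimap1 fill much of the EμMyc bars, whereas Gimap4, Gimap6 and Gimap8 make up 61.6% to 87.6% of the neuroblastoma bars.

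Whether loss of Casp2 went with different changes in the 2 tumor types was tested by an interaction term, lymphoma difference minus neuroblastoma difference. Of 8 members, 1 was called with the likelihood ratio test, Gimap4 (log2 difference 3.05 ± 0.84, FDR 0.0396), where 0.726% of all genes were called in that direction. With the quasi-likelihood test 0 of 8 were called (FDR 0.318 for Gimap4; 0.0336% of all genes called), and 2 of 8 had an unadjusted p under 0.05 with either edgeR test, beside 5.82% (likelihood ratio) and 4.93% (quasi-likelihood) of all genes in that direction. The call was lost without EuMycC2ko215 (log2 difference 2.92, FDR 0.145) or EuMycC2ko239 (2.57, FDR 0.136), and without 9 others of the 15 tumors in turn. Gimap8 had a log2 difference of 2.37 ± 0.79 (FDR 0.143, likelihood ratio test) and Gimap6 one of 1.25 ± 0.64 (FDR 0.558).

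Likeness between genes was measured as the root mean square difference of centred log2 CPM over the 7 lymphomas, as a description. Gimap4 and Gimap8 were each other's nearest members (0.33 log2 units). By likeness among all genes, Gimap8 was in place 2 for Gimap4 and Gimap4 in place 5 for Gimap8. Among non-members, Prnd (0.31), Six5 (0.37) and Fstl5 (0.38) were most like Gimap4, and Pacsin1 (0.28) and C3 (0.29) were among those most like Gimap8. Gimap3 was most like Klrd1 (0.23), Oas3 (0.28) and Icos (0.31), of which Klrd1 is a natural killer cell receptor subunit and Icos a T cell costimulator. Gimap6 and Gimap7 were each other's nearest members (0.54), as were Gimap1 and Gimap5 (0.47). Among all genes, Gimap7 came in place 82 for Gimap6 and Gimap5 in place 302 for Gimap1. The other way round, Gimap6 came in place 9 for Gimap7 and Gimap1 in place 44 for Gimap5. For Gimap9, the nearest member, Gimap1 (0.68), came only in place 7838, after genes led by 1300002E11Rik (0.11), Nudt16l1 (0.13) and Zfp956 (0.13). The measure also counts the size of the variation. Gimap9 had an SD of 0.46 log2 units, against 0.81 to 1.40 in the other members, so its place does not show pattern alone. Other leading genes were 2010107G23Rik (0.22) for Gimap1, Klhl32 (0.28) for Gimap6 and Trim34a (0.34) for Gimap7. Over the 8 neuroblastomas, Gimap6 and Gimap1 were each other's nearest members (0.17), and the leading non-members were Ptgir (0.18) for Gimap6, 6720456H20Rik (0.13) for Gimap1, Colq (0.32) for Gimap4 and Tm4sf1 (0.19) for Gimap8.

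Genes around the cluster were examined because Casp2 lies on the same chromosome. Within 1 Mb of its ends, 24 other genes were tested. In the lymphomas 2 of them were called higher in EμMyc/Casp2-/- tumors and 0 lower by the likelihood ratio test. Beside this, 1.14% of all genes were called higher and 0.302% lower. The neighbours' median log2 fold change was 0.32. Krba1, 227.5 kb before the cluster, read 1.71 to 6.16 CPM in EμMyc and 24.2, 15.2 and 23.4 CPM in the EμMyc/Casp2-/- tumors. It was higher in all 3 (log2 fold change 2.33 ± 0.37, FDR 4.53e-07, likelihood ratio test), EuMycC2ko245 included, unlike Gimap4. Tmem176b, 63.0 kb after the cluster, read 19.9 to 40.4 CPM in EμMyc and 154, 66.7 and 29.5 CPM in EμMyc/Casp2-/- (log2 fold change 1.45 ± 0.42, FDR 0.039), so its EuMycC2ko245 value lay inside the EμMyc range, as for Gimap4. In the neuroblastomas 0 of the 24 were called, beside 0.188% of all genes called higher and 0.625% lower, and the median was 0.01. Between EμMyc and Th-MycN tumors, 1 neighbour was called higher and 10 lower (median -0.80), with 18.9% of all genes called higher and 28.5% lower.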

How the data were processed

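Tumor mRNA was selected with oligo-dT and sequenced by the authors as single reads of 50 bases. Reads were checked with FastQC and aligned with STAR to mm10 (GRCm38); versions and gene annotation release are not given in the sources used here. The deposited files hold raw counts per gene from STAR in 3 columns (either strand, first, second), and column 4 of each file, the second-strand counts used by the study, was used here. The either-strand total was 1.991 to 2.018 times that of column 4, so the libraries did not mark strand and column 4 holds about 1 in 2 of the reads. The lines that name no gene were left out of library sizes and tests: unmapped (2.26% to 11.2% of all column 4 reads), multimapping (15% to 24.2%), no feature (37.4% to 49.2%) and ambiguous (0.121% to 0.155%).

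Counts were scaled by TMM and fitted over all 15 tumors and 4 group means with edgeR 4.0.16 in R 4.3.3. The likelihood ratio test, as in the study, was the main test, and the quasi-likelihood F test is given beside it. False discovery rates (FDR, Benjamini-Hochberg) are over all 14880 genes in each comparison, and a gene was called at FDR under 0.05 and a fold over 2. Standard errors are from the fitted model. A lower bound against a group with 0 reads used 3 reads over the group. DESeq2 1.42.0, other scalings, filters, count columns, subsets of groups and leaving out each tumor were alternatives. The scripts were tested on simulated data.

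All 8 members are named in every comparison, neighbours where called, lists by their lowest, highest or called genes, and genes among the 3 most like a member by pattern; some items are not reported here. The members and lists were chosen with earlier results of these data known. Each tumor was 1 mouse, and tumors of a group differed beyond counting error. Intervals of depth cover counting error only. Positions are from GENCODE M21 and upstream sequences from RefSeq, both GRCm38. A further EμMyc/Casp2-/- tumor of the study was not analysed here.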

Additional observations from a re-analysis of the deposited data

Results flagged for a closer look

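The change of Gimap4 between Casp2 genotypes differed between lymphomas and neuroblastomas by the interaction term of edgeR's likelihood ratio test, with a log2 difference of 3.05 ± 0.84 (FDR 0.0396). The quasi-likelihood test gave FDR 0.318 and DESeq2 0.0314. Gimap4 was above the highest EμMyc tumor in 2 of 3 EμMyc/Casp2-/- tumors, and below the lowest Th-MycN tumor in 1 of 4 Th-MycN/Casp2-/- tumors. No tumor stood far enough from its group to be singled out in any of the 23 groups of 4 tested over the 8 members; the EμMyc/Casp2-/- group, with 3 tumors, was too small for that test.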

How the results depend on the processing

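In the lymphomas, 1 member was called; 0 were with the quasi-likelihood test or with only the groups compared in the fit, and 2 (Gimap8 and Gimap4) with DESeq2, RLE scaling or no scaling beyond the library total. Leaving out 1 tumor at a time gave 0 to 4. For the interaction, 1 was called, 0 with the quasi-likelihood test or column 3 counts, and 0 to 2 with 1 tumor left out. The counts of 0, 7 and 8 in the other comparisons did not move under any alternative run. Signs turned only for members that were not called. Between neuroblastoma genotypes, Gimap9 was 0.07 with column 2 and 0.55 with column 3 counts, and leaving out a tumor gave -0.53 to 0.21 for Gimap9, -0.02 to 0.43 for Gimap1, -1.16 to 2.61 for Gimap3, -0.47 to 0.42 for Gimap5 and -0.05 to 0.51 for Gimap6. For the interaction, column 3 gave 0.24 for Gimap7 and -0.11 for Gimap9, and leaving out a tumor gave -2.70 to 0.05 for Gimap7 and -0.91 to 2.86 for Gimap3. Of 708 refitted fold changes, 667 kept their sign and side of the threshold, 14 turned sign, 19 lost a call and 8 gained one. The causes of these shifts were not tested, apart from fewer tumors in the fits that left some out. No paired analysis was possible because the labels give no replicate numbers shared between groups. At most 9 reads a tumor limited Gimap5, Gimap7 and Gimap9 in the neuroblastomas. Gimap3 was limited too, with at most 12 reads a tumor outside MYCNC2ko144.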
